A study of Mus musculus with 4 samples.

Results

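Transcripts of secreted plasma proteins, which are made mainly by hepatocytes, were examined in mouse heart RNA. The list holds 34 genes, among them albumin, apolipoproteins, fibrinogen chains, clotting factors, protease inhibitors and the terminal complement component C9. Its members are the probe sets whose only gene symbol in the array annotation is a listed gene: 44 of the 45037 probe sets tested, covering 33 of the 18193 genes. The remaining listed gene, Ahsp, had no probe set under that symbol. Ahsp encodes a chaperone of alpha-globin in red cells and is not a plasma protein.

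The list was drawn up after these arrays had been read, from liver products that were higher in the knock-in hearts. Differences between the genotypes are therefore a description of the listed genes, and no test of them is offered.

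The 4 one-colour arrays hold total RNA from hearts of untreated C57B6 mice aged 3.6 months, with 2 arrays for each genotype. One group was wild-type. The other carried a knock-in in the kinase gene GSK-3alpha that puts alanine in place of serine 21, a site whose phosphorylation by Akt restrains the enzyme, and the study asks which heart transcripts differ in these mice. The labels do not say whether the knock-in was homozygous or whether the arrays come from separate animals. In what follows n counts arrays, and the spread between them may be technical. All values are RMA values on a log2 scale, and pairs of values are given in the order replicate 1, replicate 2. Array medians lay between 6.14 and 6.23. All 14 measured cardiomyocyte markers, with myoglobin and the ventricular myosin light chains among them, lay above the mark for background signal used here on every array, and their median difference between genotypes was 0.06.

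Hepatocytes make most of the protein that circulates in blood plasma. They secrete it constantly, under the control of a small set of liver-enriched transcription factors, among them HNF4, the FOXA proteins and C/EBP. Albumin holds water in the vessels and carries fatty acids and hormones, apolipoproteins form the coat of lipoprotein particles, and fibrinogen is cleaved by thrombin to make the clot. In inflammation the liver changes its output, the acute phase response: fibrinogen, hemopexin and orosomucoid are among the products known to increase, and albumin, transthyretin and apolipoprotein A-I among those known to decrease. Most of these genes have little known expression in heart muscle cells.

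The array has no detection call in the values used here. As a rough mark of background signal, the 95th percentile of 44 probe sets for olfactory receptor genes was taken, which lay between 6.06 and 6.31 on the 4 arrays. Probe sets differ in affinity, so this mark is approximate. On the wild-type arrays 13 and 11 of the 33 members lay above it, and on the knock-in arrays 29 and 22. For the members below the mark in the wild-type hearts, a log2 difference understates the change, and no fold is given.

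Where several probe sets read a gene, the one with the highest mean stands for it. Of the 33 members 32 had a higher mean in the knock-in hearts, as did 46.9% of all genes, and the median difference was 0.99 against −0.01 over all genes. Of the members 16 differed by at least 1 on the log2 scale, against 0.28% of all genes, and 6 of these by at least 2, against 0.077%. The remaining members divide into 8 with differences from 0.5 to 1 and 9 below 0.5. Both knock-in arrays lay above both wild-type arrays for 22 members, against 22.5% of all genes, and for 0 members did both lie below, against 24.1%. No member probe set passed limma's test over all probe sets (0 of 44 with an adjusted p below 0.05, against 0.00666% of all probe sets called higher). At an unadjusted limma p below 0.05, 24 of 44 were higher, against 5.07% of all, and 0 were lower, against 5.62%. Because these genes were listed for this difference, nothing is read from these counts.

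The arrays of each genotype were unequal. Knock-in replicate 1 lay above both wild-type arrays for 32 members, against 29.8% of all genes, and knock-in replicate 2 did so for 22, against 39.2%. These counts too rest on the difference for which the genes were listed. Without knock-in replicate 1 the members' median difference was 0.44, and without knock-in replicate 2 it was 1.55. The array values do not show which cells or which tissue these transcripts came from, and their source was not tested. More cells that make these transcripts and more RNA per such cell cannot be told apart either.

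**Figure D1:**
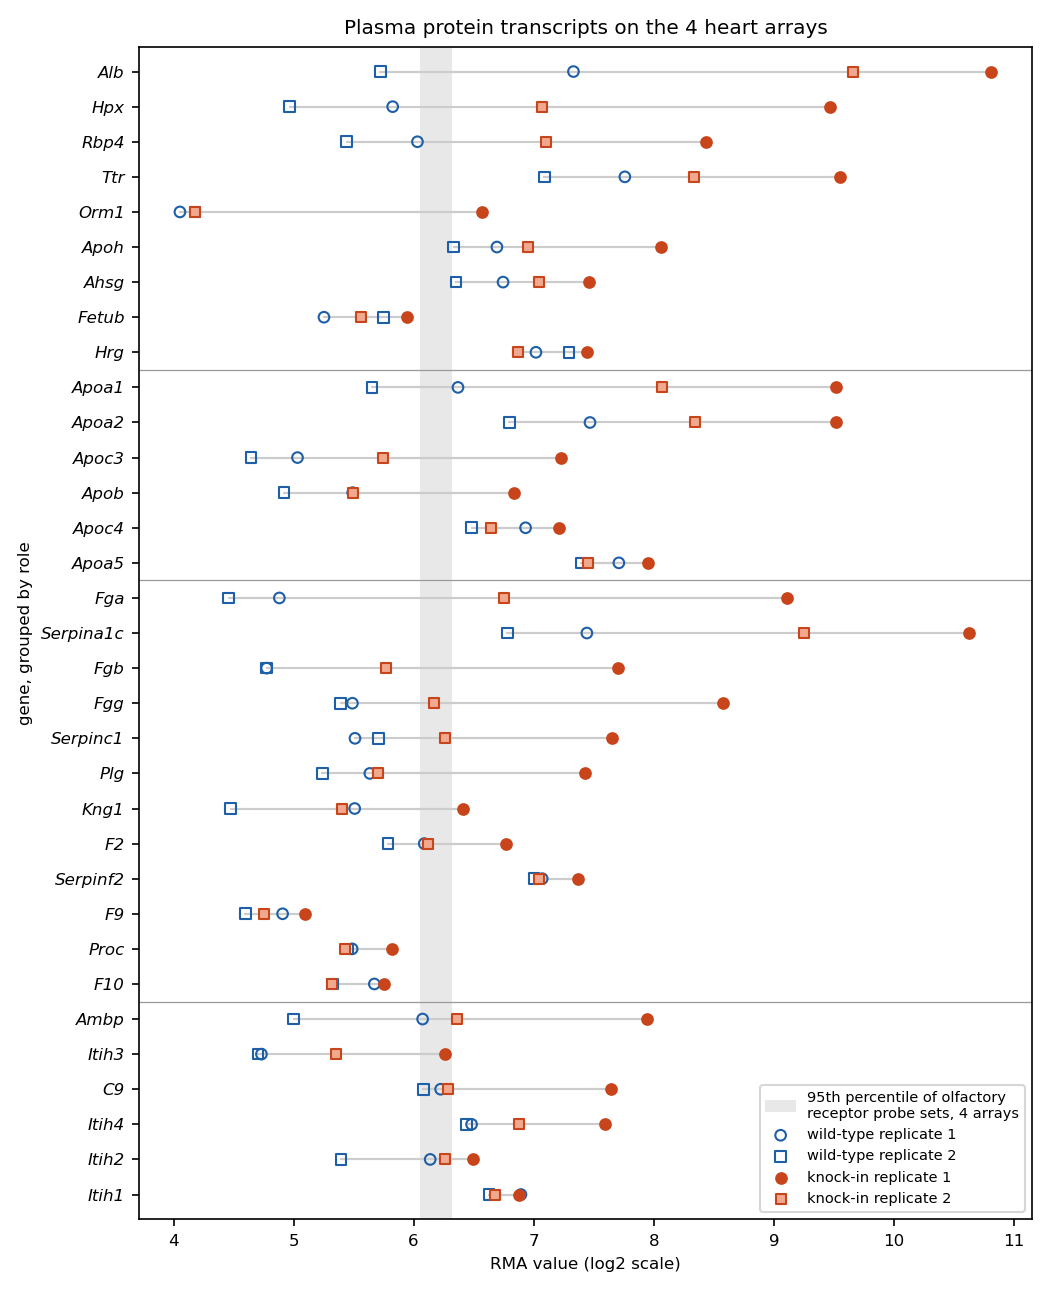
RMA values (log2 scale) of the 33 measured genes on the 4 arrays, grouped by role and ordered by difference, with open symbols for wild-type, filled symbols for knock-in, circles for replicate 1 and squares for replicate 2. The grey band spans the background mark on the 4 arrays (6.06 to 6.31). Knock-in replicate 1 is the rightmost point for every gene except Itih1, and for Orm1 wild-type replicate 2 lies under knock-in replicate 2 at 4.18.

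The carriers and binding proteins held the widest difference. Alb, which encodes albumin, read 7.33 and 5.72 in the wild-type hearts and 10.81 and 9.66 in the knock-in hearts. Its group means were 6.53 ± 1.14 (SD, n = 2) and 10.24 ± 0.81 (SD, n = 2), a difference of 3.71 with a standard error of 0.56. Both knock-in values stood well above both wild-type values, and the wild-type arrays themselves lay 1.61 apart, the widest gap in that direction of any gene measured. Leaving out 1 array at a time moved the albumin difference between 2.90 and 4.51.

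Hpx encodes hemopexin, which binds free haem in plasma. It read 5.83 and 4.97 in wild-type and 9.47 and 7.07 in knock-in hearts, a difference of 2.87 (SE 0.71). The knock-in arrays lay 2.40 apart, yet the lower of them was still above both wild-type arrays. Rbp4, the plasma carrier of retinol, read 6.03 and 5.44 against 8.43 and 7.11, a difference of 2.03 (SE 0.41). Here too the groups did not overlap.

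Ttr encodes transthyretin, which carries thyroxine and holds Rbp4 in the circulation. It was read by 4 probe sets, and on each of them the groups did not overlap. The probe set with the highest mean gave 7.76 and 7.09 against 9.55 and 8.34, a difference of 1.52 (SE 0.40). The widest difference, 3.58 (SE 0.43), came from the probe set with the lowest wild-type values, 5.26 and 4.95, against 9.41 and 7.95 in knock-in hearts. The Ttr difference thus ranged from 1.52 to 3.58 with the probe set used, while the gap between the knock-in arrays stayed between 1.21 and 1.55.

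Orm1, which encodes the acute phase protein orosomucoid, behaved differently on the knock-in arrays. It read 4.05 and 4.18 in wild-type hearts and 6.57 and 4.18 in knock-in hearts. Knock-in replicate 2 was thus at the wild-type level, and the difference of 1.26 (SE 0.67) rests on replicate 1, with 0.06 left without it. Near-identical orosomucoid genes exist in the mouse and may share this signal. The probe sets of Orm2 and Orm3 differed by 0.05 and −0.26, with all values below the background mark, and such sharing was not tested. The other acute phase carrier in this group, Hpx, was high on both knock-in arrays.

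The remaining carriers differed less. Apoh, whose product binds phospholipids and heparin, read 6.69 and 6.33 against 8.06 and 6.95, a difference of 0.99 (SE 0.34). A second Apoh probe set, below the background mark on all 4 arrays, differed by −0.08 (SE 0.18), and on it the groups overlapped. Ahsg, which encodes fetuin-A, an inhibitor of calcium phosphate precipitation, read 6.74 and 6.35 against 7.46 and 7.04, a difference of 0.70 (SE 0.19). Both genes kept the groups apart on the probe sets with the highest mean. Fetub, a relative of Ahsg, read 5.25 and 5.75 against 5.95 and 5.56, and Hrg, for histidine-rich glycoprotein, 7.02 and 7.29 against 7.44 and 6.87. For Fetub and Hrg the groups overlapped. The Hrg difference was −0.00 and turned positive, up to 0.06, when the arrays were shifted to 1 median or normalised again by quantiles or cyclic loess.

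Among the 6 apolipoprotein genes 4 kept the genotypes apart. Apoa1, for the main protein of high-density lipoprotein, read 6.37 and 5.65 in wild-type and 9.51 and 8.07 in knock-in hearts. Its means were 6.01 ± 0.51 (SD, n = 2) and 8.79 ± 1.02 (SD, n = 2), a difference of 2.78 (SE 0.46). All 4 Apoa1 probe sets kept the groups apart, with differences from 1.65 to 2.78. Apoa2, for the second protein of the same particle, read 7.47 and 6.80 against 9.51 and 8.35, a difference of 1.80 (SE 0.39).

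Apoc3, whose product slows the clearance of triglyceride-rich particles, read 5.03 and 4.65 against 7.22 and 5.75, a difference of 1.65 (SE 0.43). Apob, for the protein backbone of very low-density lipoprotein, read 5.49 and 4.92 against 6.83 and 5.50. Its difference was 0.96 (SE 0.42), and knock-in replicate 2 exceeded wild-type replicate 1 by a margin below the second decimal. A second Apob probe set gave 5.49 and 5.53 against 5.52 and 5.50, a difference of 0.00. Apoa5, a regulator of triglyceride breakdown, read 7.71 and 7.39 against 7.96 and 7.45 and differed by 0.15 (SE 0.19). Apoc4 differed by 0.22 (SE 0.23), and for it and Apoa5 knock-in replicate 2 lay below wild-type replicate 1.

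**Figure D2:**
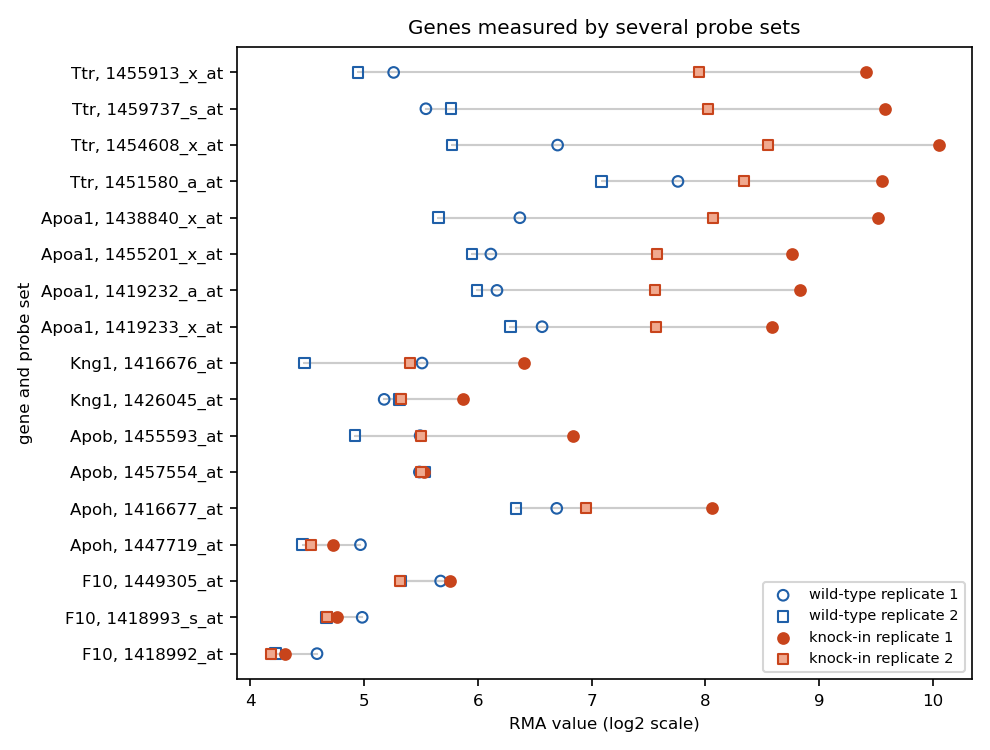
RMA values (log2 scale) for the members read by several probe sets, with the same symbols as the plot of all members. The probe sets of Ttr and Apoa1 kept the genotypes apart on all 4, those of F10 on 0, and in Kng1, Apob and Apoh 1 of 2 probe sets did so.

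The fibrinogen chains differed together. Fga, Fgb and Fgg encode the alpha, beta and gamma chains that assemble into 1 molecule, and in the mouse genome they are neighbours on chromosome 3. Fga read 4.88 and 4.46 in wild-type and 9.11 and 6.75 in knock-in hearts, a difference of 3.26 (SE 0.67). Fgb read 4.78 and 4.77 against 7.70 and 5.77, a difference of 1.96 (SE 0.54). Fgg read 5.49 and 5.39 against 8.58 and 6.17, a difference of 1.93 (SE 0.67). For each chain the wild-type arrays were close, the knock-in arrays lay 1.93 to 2.41 apart, and the groups did not overlap. Without knock-in replicate 1 the differences were 2.08, 0.99 and 0.73.

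Of the clotting factor genes proper, none differed by 1 or more. F2, for prothrombin, read 6.09 and 5.79 against 6.77 and 6.12, a difference of 0.51 (SE 0.22). Kng1, for the kininogen from which bradykinin is released, read 5.51 and 4.48 against 6.41 and 5.40. Its difference was 0.91 (SE 0.41), with an overlap of the groups, and a second Kng1 probe set differed by 0.35 (SE 0.18). F9 and F10, for vitamin K-dependent factors that act in turn before thrombin, differed by 0.17 (SE 0.16) and 0.04 (SE 0.19). The other F10 probe sets differed by −0.11 and −0.16. Proc, for the anticoagulant protein C, differed by 0.15 (SE 0.15). In F9, F10 and Proc all 4 values lay below the background mark, where a difference in transcript level is hard to detect.

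Genes of protease inhibitors and of plasmin were split. Serpina1c, an alpha-1-antitrypsin gene, read 7.44 and 6.78 in wild-type and 10.62 and 9.25 in knock-in hearts, a difference of 2.82 (SE 0.43). It belongs to a cluster of near-identical genes, so its probe set may read several of them. Serpinc1, for antithrombin, read 5.51 and 5.71 against 7.65 and 6.26, a difference of 1.35 (SE 0.40). Plg, for plasminogen, read 5.64 and 5.24 against 7.43 and 5.70, a difference of 1.13 (SE 0.50) that was 0.26 without knock-in replicate 1. These 3 genes kept the groups apart, whereas Serpinf2, for the plasmin inhibitor, read 7.07 and 7.0 against 7.37 and 7.04 and differed by 0.17 (SE 0.14).

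The promoter letters of the fibrinogen genes, albumin and Serpina1c are shown because their transcripts were high together on the same arrays, and that of Hrg because its values overlapped between the genotypes. The windows are RefSeq sequences of build GRCm38.p6, from 250 bases before to 50 bases after a gene start. They lie at chr5:90460620-90460919 (plus strand), chr12:103904901-103905200 (minus strand), chr3:83025903-83026202 (plus strand), chr3:83049814-83050113 (minus strand), chr3:83007474-83007773 (plus strand) and chr16:22950822-22951121 (plus strand). Capitals mark letters that match 1 of the motifs searched on both strands: CAAAGTCCA for HNF4 and TTGCGCAA for C/EBP, each with at most 1 mismatch, and exact TGTTTAC or TGTTTGC for FOXA and TATAAA, the core letters of a TATA box. In these windows no motif overlapped another.
Alb: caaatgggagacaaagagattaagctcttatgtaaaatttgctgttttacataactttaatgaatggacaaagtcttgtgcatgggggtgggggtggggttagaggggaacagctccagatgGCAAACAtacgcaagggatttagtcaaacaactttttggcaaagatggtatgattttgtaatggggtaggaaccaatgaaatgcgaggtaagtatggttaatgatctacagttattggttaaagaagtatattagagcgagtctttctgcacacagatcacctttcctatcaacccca
Serpina1c: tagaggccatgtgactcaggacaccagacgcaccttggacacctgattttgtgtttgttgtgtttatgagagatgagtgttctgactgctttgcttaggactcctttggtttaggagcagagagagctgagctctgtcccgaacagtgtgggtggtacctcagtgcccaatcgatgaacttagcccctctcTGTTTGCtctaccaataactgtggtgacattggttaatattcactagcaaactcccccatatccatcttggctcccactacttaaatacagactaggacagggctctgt
Fga: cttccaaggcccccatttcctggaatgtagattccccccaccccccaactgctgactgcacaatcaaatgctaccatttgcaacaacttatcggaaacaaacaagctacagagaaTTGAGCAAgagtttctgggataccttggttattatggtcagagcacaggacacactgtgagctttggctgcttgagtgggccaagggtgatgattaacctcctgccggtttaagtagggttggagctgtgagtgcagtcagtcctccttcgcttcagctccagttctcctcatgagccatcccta
Fgb: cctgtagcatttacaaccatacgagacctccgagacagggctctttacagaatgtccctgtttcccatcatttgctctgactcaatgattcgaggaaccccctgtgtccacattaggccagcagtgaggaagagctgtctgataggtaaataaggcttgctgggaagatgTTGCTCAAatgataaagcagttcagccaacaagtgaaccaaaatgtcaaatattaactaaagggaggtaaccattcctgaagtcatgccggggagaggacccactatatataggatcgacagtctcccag
Fgg: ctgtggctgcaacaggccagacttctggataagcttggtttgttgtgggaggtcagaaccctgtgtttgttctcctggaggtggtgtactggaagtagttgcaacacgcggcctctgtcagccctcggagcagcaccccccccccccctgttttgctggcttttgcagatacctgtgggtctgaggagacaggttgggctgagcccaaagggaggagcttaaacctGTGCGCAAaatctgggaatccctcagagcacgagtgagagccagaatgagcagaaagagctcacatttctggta
Hrg: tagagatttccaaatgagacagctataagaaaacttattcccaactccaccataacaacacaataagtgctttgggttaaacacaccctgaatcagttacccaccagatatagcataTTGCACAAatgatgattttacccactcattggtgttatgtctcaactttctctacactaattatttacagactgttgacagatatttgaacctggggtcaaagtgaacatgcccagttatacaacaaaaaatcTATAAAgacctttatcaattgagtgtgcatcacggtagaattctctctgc

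The albumin window held a FOXA match at bases 123 to 129, counted from its 5′ end, and Serpina1c held FOXA letters at 192 to 198. Fga, Fgb and Fgg each held a C/EBP match, which in Fgg stood at 227 to 234. Hrg, with its difference of −0.00, held a C/EBP match as well, and the letters TATAAA at 251 to 256, which begin at the gene start itself and not upstream of it. C/EBP letters thus stood in the windows of Hrg and of the fibrinogen genes alike.

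Over the members, 27 of the 33 measured genes had a window, 31 windows in all. FOXA letters stood in 13 of 31 member windows against 8.48% of all 32851 windows, and C/EBP letters in 8 against 5.92%. HNF4 letters stood in 5 against 8.47% and TATAAA in 9 against 13.6%. Some genes have several windows, which overlap for Apoa5, and a match of letters does not show that a factor binds.

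The inter-alpha-trypsin inhibitors stabilise the hyaluronan matrix, and Ambp encodes the light chain bikunin together with a haem scavenger. Ambp read 6.07 and 5.0 in wild-type and 7.94 and 6.36 in knock-in hearts, a difference of 1.61 (SE 0.54). Among the heavy chains Itih3 read 4.73 and 4.70 against 6.26 and 5.35, a difference of 1.09 (SE 0.27), and Itih4 read 6.48 and 6.44 against 7.59 and 6.88, a difference of 0.77 (SE 0.22). Itih2 read 6.14 and 5.40 against 6.50 and 6.26, a difference of 0.61 (SE 0.24). In these 4 genes the groups did not overlap. Itih1 read 6.89 and 6.63 against 6.88 and 6.68, with a difference of 0.02 (SE 0.14). C9, for the pore-forming component of the complement attack complex, read 6.22 and 6.08 against 7.64 and 6.29, and its difference of 0.81 (SE 0.39) was 0.13 without knock-in replicate 1.

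Members that are neighbours in the genome differed by unequal amounts. On chromosome 9 Apoa1 and the adjacent Apoc3 differed by 2.78 and 1.65, while Apoa5, which has 1 coding gene between itself and Apoc3, differed by 0.15. On chromosome 14 Itih4, Itih3 and Itih1 lie side by side and differed by 0.77, 1.09 and 0.02. On chromosome 16 Ahsg, Fetub and Hrg follow each other with differences of 0.70, 0.25 and −0.00. Probe sets differ in response, so the sizes are approximate. Apoa5, Itih1 and Hrg lay above the background mark on all 4 arrays, whereas Fetub lay below it on all 4.

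Many members shared an order of the arrays. Knock-in replicate 1 lay above knock-in replicate 2 for 33 of 33 members, against 41.5% of all genes, and wild-type replicate 1 above wild-type replicate 2 for 29, against 59.1%. For 21 members the full order was knock-in replicate 1, knock-in replicate 2, wild-type replicate 1, wild-type replicate 2, an order found in 2.52% of all genes. Another 5 had wild-type replicate 1 above knock-in replicate 2, with the order otherwise the same, and the rest fell into 5 further orders of 1 or 2 members each. The median gap was 1.15 between the knock-in arrays and 0.36 between the wild-type arrays, against −0.03 and 0.04 over all genes. With 1 array against 1 there is no replicate check of these gaps. A gap of at least 1 between the knock-in arrays was seen for 19 members, against 0.258% of all genes. Listing genes for a higher knock-in mean favours the full order given above, and may favour wide gaps between the knock-in arrays. Nothing is therefore read from these shares.

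**Figure D3:**
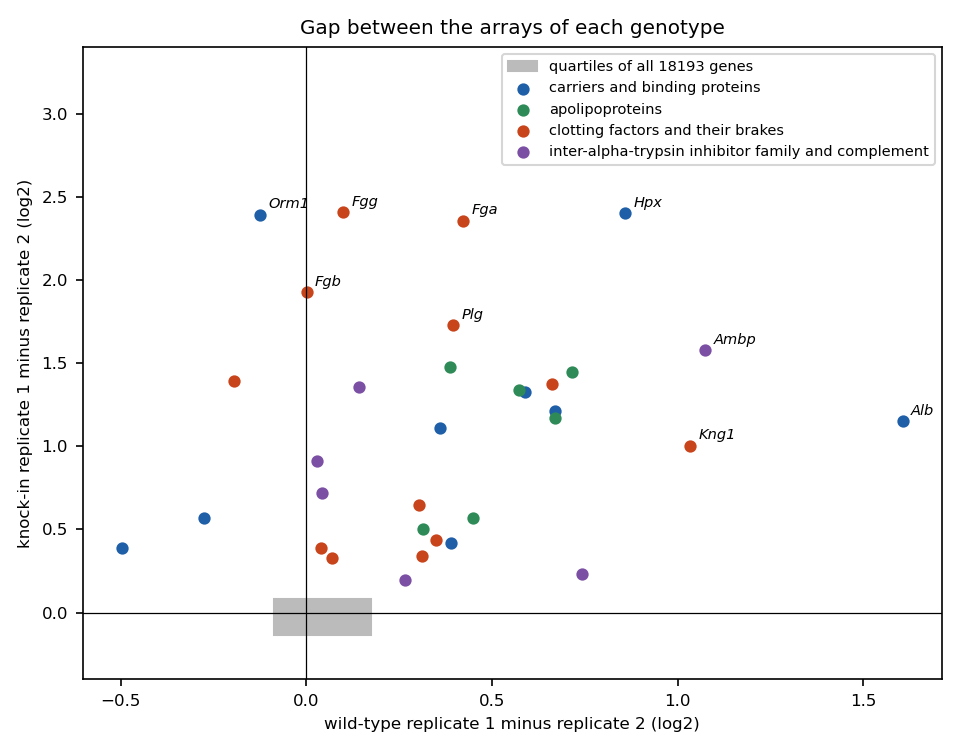
Gap between the arrays of each genotype for the 33 measured genes, replicate 1 minus replicate 2 on the log2 scale, wild-type along x and knock-in along y, coloured by role; the grey box spans the quartiles of all genes. Every member lies above 0 on the y axis, Fgg, Hpx, Orm1 and Fga lie highest (2.36 to 2.41), and Alb lies farthest right (1.61).

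The gap between the knock-in arrays was uneven across genes. It exceeded 2 for 4 members, Fgg at 2.41, Hpx at 2.40, Orm1 at 2.39 and Fga at 2.36, and stood at 1.93 for Fgb. Albumin, Ttr, Rbp4 and Apoa1 had gaps of 1.15, 1.21, 1.33 and 1.44, although their knock-in values were well clear of the wild-type ones. Plg, Ambp and Apoc3 lay in between, at 1.73, 1.58 and 1.48. Fgg, Hpx, Orm1, Fga and Fgb encode proteins known to increase in the acute phase response, and albumin, Ttr, Rbp4 and Apoa1 encode proteins known to decrease. Ahsg, whose product also decreases, had a gap of 0.42. The gaps did not divide the acute phase genes in this way throughout: Itih3 and Itih4, whose products also increase, had gaps of 0.91 and 0.72. Of acute phase genes not on the list, Saa1 had a gap of 1.76, Hp of 0.95, Crp of 0.90, Saa2 of 0.81 and Hamp of 0.74. Orm3, Apcs, Orm2, Saa3 and Saa4 had gaps of 0.38, 0.34, 0.26, 0.21 and 0.16. Cp, Lrg1 and Serpina3n had gaps of −0.06, −0.21 and -1.03. Wide gaps were not limited to the genes named here as acute phase: Apoc1 had a gap of 1.95 and the hepatocyte enzyme gene Ugt2b5 of 1.92. The median gap of the 33 measured hepatocyte enzyme and transporter genes was 0.50. Crp, Orm2, Orm3 and Saa4 lay below the background mark on all 4 arrays, and Saa1, Saa2 and Ugt2b5 on all but knock-in replicate 1. These genes were set side by side after their values were seen, with no test.

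A log2 gap shrinks when a large part of the signal is background, so the signal in excess of the wild-type mean was also compared on the linear scale. This was done for the 14 members whose knock-in replicate 2 lay at least 0.5 above the wild-type mean. The excess on replicate 2 is also the divisor of the ratio, so this rule tends to leave out large ratios. Members left out included Plg at 14.9, C9 at 18.5 and Orm1 at 102, but also Itih2 at 1.61 and Ahsg at 2.15. The excess on knock-in replicate 1 was 2.38 times that on replicate 2 for Alb, 3.07 for Serpina1c, 3.26 for Apoa1, 3.47 for Rbp4 and 3.81 for Ttr. It was 6.39 times for Fga, 6.63 for Fgb, 7.24 for Hpx and 11.9 for Fgg. Taking either wild-type array alone as the baseline gave 2.31 to 2.53 for Alb and 6.17 to 6.67 for Fga. Itih3, also an acute phase gene, stood at 3.48, close to Rbp4. Apoa2 stood at 3.19, Apoc3 at 4.83, Serpinc1 at 5.47 and Ambp at 5.57. The ratio for Ambp was 12 against wild-type replicate 1 and 4.25 against wild-type replicate 2. RMA signal is not strictly proportional to transcript amount, which limits these ratios.

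Other plasma protein genes, not on the list, were mixed, and none passed the test in any of the lists that follow. Each count below is to be read beside the shares over the whole array. Of all genes 46.9% were higher, and 0.28% by at least 1. Of all probe sets 5.07% were higher and 5.62% lower at an unadjusted limma p below 0.05. Of 11 further clotting and fibrinolysis genes 8 were higher, and the median difference was 0.09. Vtn, for vitronectin, differed by 0.37, Pros1 by 0.23, Serpind1 by 0.40 and Klkb1 by 0.02. Of 18 further complement genes 13 were higher, with a median of 0.14. Serping1, the inhibitor of the first complement component, differed by 0.31, C1s1 by 0.49, C1qa by 0.09 and Masp1 by −0.05. At an unadjusted limma p below 0.05, 3 and 6 genes of these lists were higher and 0 and 0 lower.

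Of 11 further apolipoprotein and lipoprotein genes 10 were higher, with a median of 0.30. Apoe, made by many cell types, differed by 0.53, Pltp by 0.32 and Mttp by 0.21. Apoc1 read 6.23 and 5.59 against 8.91 and 6.96, a difference of 2.02 with a gap of 1.95 between the knock-in arrays. Of 28 further carriers, serpins and acute phase genes 19 were higher and 4 of them by at least 1, with a median of 0.15. The 4 with the highest mean levels, Lrg1, Cp, Igf1 and Igfals, differed by −0.13, 0.22, 0.06 and 0.15. Serpina1b, a close relative of Serpina1c, had the widest difference, 2.70, and is named for that reason. At an unadjusted limma p below 0.05, 5 and 7 genes of these lists were higher and 1 and 0 lower.

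Transcripts of hepatocyte enzymes, which are not secreted, were higher alongside the plasma proteins. Of 33 measured enzyme and transporter genes 29 were higher, with a median difference of 0.50 and a median gap of 0.50 between the knock-in arrays. Their signals summed to between 2638 and 2744 on the wild-type arrays and to 5808 and 3732 on the knock-in arrays, on the linear scale. Cyp2e1, an ethanol-oxidising cytochrome P450, read 7.75 and 6.94 against 9.95 and 8.53, a difference of 1.90. Fah, Adh1 and Gnmt differed by 0.49, 0.02 and 0.75. At an unadjusted limma p below 0.05, 18 were higher and 0 lower, against 5.07% and 5.62% of all probe sets. After adjustment 0 passed. The part of hepatocyte transcripts in the members' differences was not tested.

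Genes of liver transcription factors were centred near 0. Of 16 measured, 10 were lower and the median was −0.03. Only 8 to 10 of the 16 lay above the background mark on each array, and below it a difference is hard to detect. Foxa1, Foxa2 and Foxa3 lay below it on all 4 arrays and differed by −0.01, −0.07 and −0.07. None passed the test (0 of 16), with 1 higher and 0 lower at an unadjusted limma p below 0.05. Hnf4a read 7.12 and 7.0 against 7.33 and 7.15, a difference of 0.18. Cebpa read 7.96 and 7.94 against 8.30 and 8.42, a difference of 0.41, while Cebpb, Nr0b2 and Creb3l3 differed by −0.19, 0.01 and −0.06.

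Markers of other liver cells and of other organs also had medians near 0. Many of these markers lay below the background mark, where a difference is hard to detect. On every array only 1 of 6 bile duct, 1 of 8 gut and 2 of 6 stellate cell markers lay above it. Of the Kupffer cell markers 1 to 3 of 7 did so. Others were high in these hearts, with means of 13.62 for Des, 14.25 for Ckm and 12.70 for Acta1. For these a small added signal would be hard to see. The median difference was 0.04 for 7 Kupffer cell markers, 0.04 for 7 markers of liver sinusoidal endothelium, 0.01 for 6 stellate cell markers and −0.11 for 6 bile duct markers. It was −0.17 for gut epithelium, whose gene Apoa4, an apolipoprotein gene of the Apoa1 cluster, differed by −0.37. Another gene of that list, Lgals4, for the sugar-binding protein galectin-4, read 9.73 and 9.22 in wild-type and 8.28 and 8.14 in knock-in hearts. Its difference of -1.26 (SE 0.18) was the lowest of all genes measured and did not pass limma's test (adjusted p = 0.26). The median was −0.07 for 7 kidney tubule, −0.08 for 7 pancreas, −0.09 for 5 fat, −0.07 for 8 skeletal muscle and −0.02 for 9 red cell markers. Among the Kupffer cell markers Vsig4 read 5.80 and 5.78 against 6.45 and 6.50, a difference of 0.68, and Clec4f, the marker most particular to these cells, differed by −0.03. Summed signals of the Kupffer cell markers lay between 446 and 484 in wild-type and between 490 and 519 in knock-in hearts. In these 10 cell marker lists, with 5 to 9 measured genes each, 0 genes passed limma's test. An unadjusted limma p below 0.05 was found for 3 that were higher and 4 that were lower. The shares of all probe sets were 5.07% and 5.62%.

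**Figure D4:**
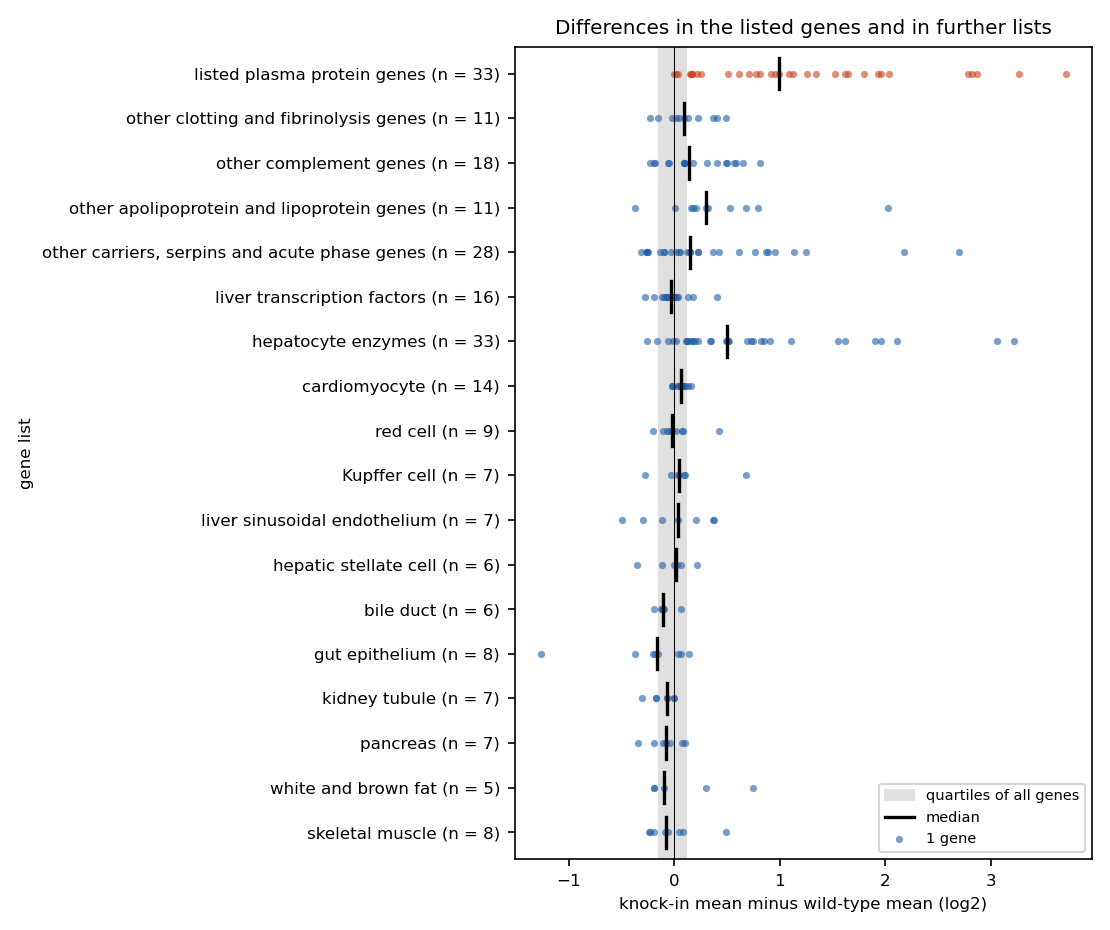
Difference of group means (knock-in minus wild-type, log2) for the 33 measured plasma protein genes and for each gene of the further lists, with 1 point per gene, a bar at each list's median and a grey band over the quartiles of all genes. The median is 0.99 for the listed plasma protein genes, 0.50 for hepatocyte enzymes and −0.03 for liver transcription factors.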

How the data were processed

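The authors deposited RMA values on the log2 scale, and the submitters' processing notes name RMA and Affymetrix Expression Console. RMA subtracts background, brings arrays to 1 distribution and combines the probes of a set, so it takes out any shift common to most genes. The labels say that the wild-type scans were normalised here with these knock-in arrays alone. The program's version is not given in the sources used here, and scanner files were not used here.

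Of 45101 probe sets 64 controls were left out. The platform annotation gave 34945 of the rest 1 symbol, 932 several and 9160 none listed, and genes were named from 1-symbol probe sets. Groups were compared with limma 3.58.1 in R 4.3.3 (lmFit, eBayes, no covariate, Benjamini-Hochberg over 45037 probe sets, threshold 0.05), with a fitted prior of 4.54 degrees of freedom added to 2. The fit was tested on simulated data. Summaries used pandas 2.3.3 and numpy 2.4.6 in Python 3.11.15, and figures matplotlib 3.10.9. Precision is limited by the number of arrays, with a median standard error of 0.12 per difference.

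All members are named, and of each further list of plasma protein, enzyme or factor genes up to 4 with the highest mean. Exceptions named after their values were seen are Apoc1, Serpina1b, Hnf4a, Apoa4, Lgals4, Saa1, Hp, Crp, Saa2, Serpina3n, Vsig4 and Clec4f. So are Saa3, Saa4, Apcs, Orm2, Orm3, Hamp, Ugt2b5, Foxa1, Foxa2, Foxa3, Des, Ckm, Acta1, Cidea, Retn and Lep. The members and lists were chosen with earlier results of these data known. Gene names and neighbours come from a RefSeq table of GRCm38.p6. Alternatives covered normalisation, dim and cross-hybridising probe sets, probe set summary, variance prior, array weights, replicate block and each array left out. One planned promoter motif is not reported here. No scan batch is given in the sources used here.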

Additional observations from a re-analysis of the deposited data

How the results depend on the processing

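The members' median difference of 0.99 and the median gap of 1.15 between the knock-in arrays kept their sign in every setting run. The median difference ranged from 0.81 to 1.07 over normalisations and probe set rules, and from 0.44 to 1.55 with 1 array left out at a time. The gap ranged from 0.91 to 1.24. The count of members whose groups did not overlap was 22. It was 25 to 26 after other normalisations of the arrays and 22 with the probe sets of a gene averaged. It was 29 of 44 when every probe set was counted and 17 of 26 without cross-hybridising probe sets. With 1 array left out it was 22 to 32, but the rule then compares 1 array with 2. That rule is easier to meet, so these counts could not fall below 22. The count was 6 when probe sets with a mean below 7 were left out, since only 9 members were then tested. Their median difference of 1.52 says nothing of stability, because some of them reached that mean only through the knock-in arrays. The probe set with the highest wild-type mean, a choice added after seeing the data, gave 0.99 and 22. No member probe set passed limma's test as reported, with 1 array left out (0 to 0), with other normalisations, filters, priors or array weights, or at a threshold of 0.1. With the replicate number as a block 1 of 44 passed, the albumin probe set (limma adjusted p = 0.0421, against 0.278 without the block). Of all 45037 probe sets 4 passed in that fit. Replicate numbers are only names here: with 2 pairs, the deviations of same-numbered arrays correlated at 0.0848 over all probe sets. Among the members, replicate 1 lay above replicate 2 for 33 of 33 on the knock-in arrays and for 29 on the wild-type arrays. Leaving Ahsp out changed nothing, as it was not measured. Signals near background limit what can be said of F9, F10, Proc and Fetub.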

Other observations

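Not every transcript foreign to heart muscle was highest on knock-in replicate 1. Adipoq, for the fat cell hormone adiponectin, read 5.23 and 5.30 in wild-type hearts and 5.13 and 6.89 in knock-in hearts, so it was highest on knock-in replicate 2, where it lay 1.76 above replicate 1. Ucp1, the uncoupling protein of brown fat, read 5.42 and 4.68 against 4.91 and 5.80, again highest on knock-in replicate 2. Ucp1 lay below the background mark on all 4 arrays, and Adipoq on all but knock-in replicate 2. The other fat markers measured, Cidea, Retn and Lep, were highest on wild-type replicate 1, at 10.40, 7.33 and 4.62. The acute phase gene Serpina3n lay above the background mark on all 4 arrays and is not counted as foreign to heart here. It read 8.07 and 8.29 against 8.28 and 9.31, with its highest value also on knock-in replicate 2. Adipoq, Ucp1 and Serpina3n were picked after their values were seen. None passed limma's test (adjusted p = 0.57, 0.72 and 0.49).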
